A study of Mus musculus with 34 samples.

Results

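The regulators of G protein signalling (RGS) measured here were Rgs1, Rgs2, Rgs3, Rgs4, Rgs10, Rgs13, Rgs16, Rgs18 and Rgs19, taken by name from the count tables, 9 of 25853 genes listed. The tables hold 21 genes with an Rgs number in all, and of the others Rgs5 is described beside the members because it was the most abundant Rgs gene of the Myh11-GFP cells. The remaining Rgs genes, and the genes of the RGS binding proteins Rgs7bp and Rgs9bp, entered only in a comparison list. Single cells from mouse ear skin were profiled by mCEL-Seq2, a plate-based method that tags the 3′ end of each mRNA with a unique molecular identifier (UMI). Mast cells (MCs) were sorted as CD45+ lineage-negative YFP+ cells from 3 WT mice (Mcpt5-Cre+/- R26LSLYFP, Tln1+/+) and 3 Tln1∆MC mice (Mcpt5-Cre+/- Tln1fl/fl R26LSLYFP). All 6 were untreated male littermates of 7 weeks, so that both genotypes carried the Cre and the YFP reporter. The Mcpt5 promoter drives the Cre in connective tissue MCs, and Tln1, which encodes the integrin activator talin-1, is floxed in the knockout. A second sort took CD45- GFP+ cells from ear skin of Myh11GFP/+ mice, in which the promoter of smooth muscle myosin heavy chain drives GFP. According to the study's text, this gate also took GFP-low pericytes and a few fibroblasts. The number of mice behind its 4 libraries, numbered 13 to 16, is not given, so that differences between the sorts are described without a test.

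RGS proteins end G protein signals. A ligand-bound receptor loads GTP onto the G alpha subunit, which then signals together with the released G beta-gamma dimer until the GTP is hydrolysed, and RGS proteins speed up that hydrolysis. MCs carry many G protein-coupled receptors, among them receptors for adenosine and for the basic secretagogues that trigger degranulation, while smooth muscle tone is set by receptors coupled to the Gq, Gi and G12/13 families.

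Cells with over 1000 transcripts were kept, which left 2477 MCs (272 to 934 per mouse) and 330 Myh11-GFP cells (73 to 93 per library). The study reports fewer MCs at this limit and excluded a very small subset with macrophage features. Here MCs are all sorted cells past the limit, and none was left out for its markers. A level below is the number of transcripts of a gene per 10,000 transcripts outside genes with Gm names, summed over the cells of a mouse (MCs) or of a library (Myh11-GFP cells). With 1 tag counted per mRNA molecule, levels are compared between genes without dividing by transcript length. The sums behind them were 699401 to 5238330 transcripts per mouse and 221589 to 478713 per Myh11-GFP library. The share of transcripts from genes with Gm names was lowest in Tln1∆MC mouse 3 (14.2%) and highest in WT mouse 3 (58.0%). MC markers summed to 635 to 868 in the 6 mice and to 0.275 to 0.522 in the Myh11-GFP libraries. Smooth muscle markers summed to 67.1 to 90.2 in the Myh11-GFP libraries and to at most 0.200 in the mice. The GFP sort was mixed, with fibroblast markers at 107 to 232 and pericyte markers at 8.82 to 11.3. Among the MCs, fibroblast markers were at 18.0 to 68.6 in WT mice and 0.833 to 9.37 in Tln1∆MC mice, and macrophage markers reached 41.3 in WT mouse 2. Each table lists 192 barcodes, in 2 sets of 96 of which 1 was in use. All tables share these barcodes by design, and 17 of the kept cells lay on the other set. Totals on the unused barcodes were correlated with the used barcodes of other libraries, as a sign of carry-over. WT mice 2 and 3 went together (mean r 0.477 and 0.487), and with Tln1∆MC mouse 2 (0.282 to 0.497). WT mouse 1 went with Tln1∆MC mouse 1 only weakly (0.212 and 0.238), little above Myh11-GFP library 16 (0.168 and 0.171). WT mouse 3 also reached 0.266 with that library. Tln1∆MC mouse 3 stood alone. These groups are inferred and are not in the labels.

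Most of the members that MCs expressed lie side by side. Rgs2 (GRCm38, chr1:143999338-144004161), Rgs13 (chr1:144138654-144177372), Rgs1 (chr1:144242296-144249242) and Rgs18 (chr1:144752683-144775435) are all on the minus strand. In the GENCODE M21 annotation this stretch of 776.098 kb holds 5 protein-coding genes, all of them Rgs genes, with Rgs21 as the fifth. Rgs16 lies farther along chromosome 1 on the plus strand (chr1:153740349-153745468). Rgs4 (chr1:169741477-169747642, minus strand) is the neighbour of Rgs5, and both fit in 92.142 kb. The remaining members are Rgs19 (chr2:181688419-181693977, minus strand), Rgs3 (chr4:62559847-62704001, plus strand) and Rgs10 (chr7:128373621-128418758, minus strand). Rgs10 shares same-strand sequence with Gm15503, and its counts are uncertain to that extent because reads with several loci were discarded.

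RefSeq promoter sequences (GRCm38.p6) were at hand for 7 of the 9 members. The windows below run from base -250 to base -31 relative to the transcription start. They are shown for the most abundant member in MCs (Rgs2), for the most abundant member in Myh11-GFP cells (Rgs16), and for Rgs13, the near neighbour of Rgs2 that stayed low in both. Capitals mark TGACG (the short CRE, the shared core of cAMP response elements), CCAAT (the CCAAT box) or CCGCCC (the GC box), on either strand.
Rgs2, chr1:144004180-144004399, minus strand: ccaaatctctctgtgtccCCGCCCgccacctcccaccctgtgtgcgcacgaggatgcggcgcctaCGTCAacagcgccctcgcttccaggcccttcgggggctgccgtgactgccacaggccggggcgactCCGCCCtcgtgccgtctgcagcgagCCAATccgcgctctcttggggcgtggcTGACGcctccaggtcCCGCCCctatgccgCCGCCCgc
Rgs16, chr1:153740103-153740322, plus strand: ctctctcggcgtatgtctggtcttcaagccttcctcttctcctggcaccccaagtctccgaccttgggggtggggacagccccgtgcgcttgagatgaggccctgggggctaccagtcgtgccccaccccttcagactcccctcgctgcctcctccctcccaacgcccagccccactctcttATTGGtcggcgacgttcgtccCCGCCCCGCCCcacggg
Rgs13, chr1:144177403-144177622, minus strand: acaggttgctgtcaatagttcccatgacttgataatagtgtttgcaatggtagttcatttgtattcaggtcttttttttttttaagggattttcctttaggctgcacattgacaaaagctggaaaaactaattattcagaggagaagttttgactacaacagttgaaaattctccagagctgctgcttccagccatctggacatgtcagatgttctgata
The Rgs2 window was 72.3% G and C and held 2 short CREs, 1 CCAAT box and 4 GC boxes. The Rgs16 window was 67.3% G and C, with 1 CCAAT box and 2 overlapping GC boxes. The Rgs13 window was 37.3% G and C and held none of these 3 motifs. Over all 32515 promoter windows of the same 220 bases, 14.9% held a short CRE, 31.0% a CCAAT box and 28.7% a GC box. The full CRE (TGACGTCA, which contains the short CRE, in 1.15% of windows), the AP-1 site (TGANTCA, 6.10%), the GATA site (AGATAA, 9.01%), the E-box (CACGTG, 5.02%) and the serum response CArG box (1.30%) were searched on both strands too. None of these 5 was found in the spelling given in the windows of Rgs2, Rgs16 or Rgs13. Variants of a site, such as TGATAA for GATA, which the Rgs13 window holds, were not counted. The NFAT core (GGAAA, 51.4% of windows) occurred 2 times in the Rgs13 window and in neither of the others.

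MCs and Myh11-GFP cells expressed different members. Rgs2 and Rgs1 led in MCs, followed by Rgs18 and Rgs10, whereas Rgs16 and Rgs4 led in Myh11-GFP cells, behind the non-member Rgs5. Over all members, Rgs2 made up 42.5% to 54.7% of the member transcripts of each mouse and Rgs1 19.7% to 28.4%. In the Myh11-GFP libraries Rgs16 made up 62.2% to 76.0% and Rgs4 13.9% to 29.2%.

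Rgs2, an inhibitor with a preference for Gq, was at 11.7, 8.16 and 11.2 in WT mice 1 to 3 and at 12.6, 13.4 and 9.29 in Tln1∆MC mice 1 to 3. In Myh11-GFP libraries 13 to 16 it was at 2.09, 1.71, 0.743 and 0.722. Every mouse lay above every Myh11-GFP library, and the mean of 11.1 ± 2.00 (SD, n = 6 mice) was 8.40-fold higher than that of the Myh11-GFP libraries (1.32 ± 0.691, SD, n = 4 libraries). Rgs1, which acts on Gi and Gq and limits chemokine responses in lymphocytes, was at 4.90, 5.09 and 5.48 in WT mice and at 6.04, 5.95 and 6.22 in Tln1∆MC mice. The Myh11-GFP libraries held 2 Rgs1 transcripts in all, both in library 13 (0.0418), so that the pooled level was 423-fold higher in MCs (95% counting interval 117 to 3495). This and the other intervals cover counting error only. The libraries of the 6 mice spread more widely than the mice did. Rgs2 ran from 6.05 to 16.0 over the 30 MC libraries, both extremes being libraries of WT mouse 3, and Rgs1 ran from 2.64 to 10.0.

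Rgs18, best known from platelets and other blood cells, was at 3.26, 2.18 and 1.82 in WT mice and at 2.71, 2.20 and 2.85 in Tln1∆MC mice. No Rgs18 transcript was counted in the Myh11-GFP cells. The pooled MC level was 127-fold that of a floor of 3 transcripts over the 4 libraries. The 95% counting interval of the ratio of MCs to Myh11-GFP cells has a lower bound of 103. Rgs10, a small Gi-selective member known from microglia and platelets, was at 3.22, 2.31 and 1.99 in WT mice and at 1.71, 1.77 and 2.07 in Tln1∆MC mice. Its 4 Myh11-GFP levels of 0.0451 to 0.0627 stayed far below the lowest mouse, and the means were 40.3-fold apart.

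The remaining members were low in MCs. Rgs19, also called GAIP and named for its binding to a Gi subunit, was at 0.390 to 0.729 in the mice and at 0 to 0.106 in the Myh11-GFP libraries (10.5-fold by the means). Rgs13, known as a brake on degranulation in MCs, was at 0.329 to 0.670 in the mice. A single Rgs13 transcript was counted in the Myh11-GFP cells, in library 15, and the pooled ratio was 70.5 (95% counting interval 12.6 to 2790). Rgs16, a member that many cells induce on stimulation, was at 0.335, 0.139 and 0.257 in WT mice and at 0.346, 0.229 and 0.311 in Tln1∆MC mice. Its levels in the Myh11-GFP libraries were 14.1, 17.3, 7.82 and 10.6. All 4 libraries lay above all 6 mice, and the Myh11-GFP mean of 12.4 ± 4.13 (SD, n = 4 libraries) was 46.1-fold higher than that of MCs (0.270 ± 0.0783, SD, n = 6 mice).

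Rgs4, which dampens Gi and Gq signals in heart and brain, was at 2.65, 3.58, 3.67 and 2.53 in the Myh11-GFP libraries. The MC levels were 0 to 0.0578, with no transcript in WT mice 2 and 3, and the pooled ratio was 282 (95% counting interval 156 to 569). Rgs3 was the least abundant member over both sorts, with 23 transcripts in each. It was at 0.138 to 0.181 in the Myh11-GFP libraries and at 0.0134 to 0.0693 in the mice, and was too rare for the comparisons across all genes. Rgs5, the Rgs gene used as a marker of pericytes and vascular smooth muscle, was at 118, 108, 115 and 111 in the Myh11-GFP libraries and at 0.0172 to 0.254 in the mice.

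**Figure D1:**
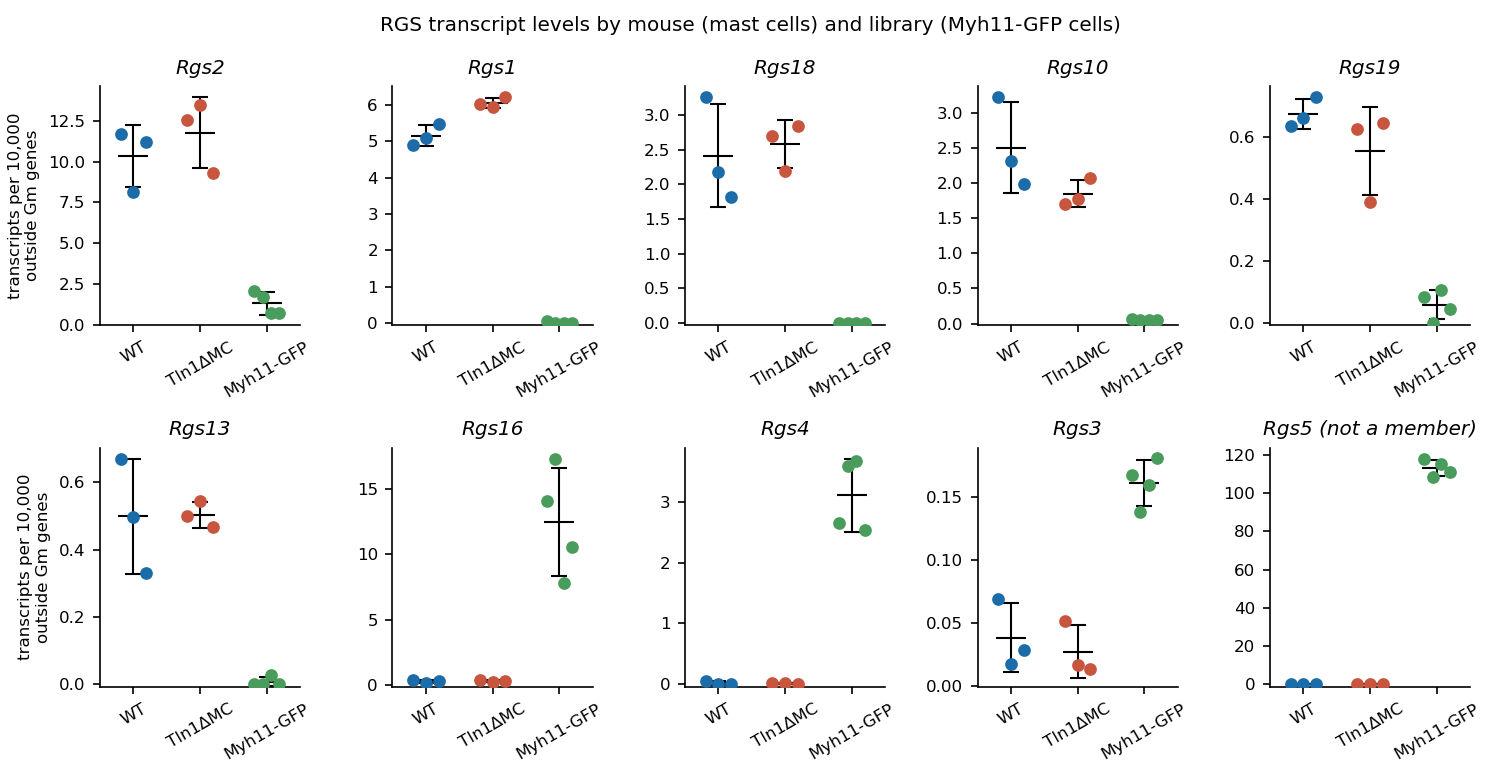
Level of each member and of Rgs5 (transcripts per 10,000 outside Gm genes, linear axis, a scale for each gene) in 3 WT mice, 3 Tln1∆MC mice and 4 Myh11-GFP libraries. Each point is 1 mouse or library, and bars give the mean ± SD. The 6 mice lie above the 4 libraries for Rgs1, Rgs2, Rgs10, Rgs13, Rgs18 and Rgs19, and below them for Rgs3, Rgs4, Rgs16 and Rgs5.

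The order of levels in MCs was Rgs2, Rgs1, Rgs18, Rgs10, Rgs19, Rgs13 and Rgs16. Rgs18 was above Rgs10 in 4 of 6 mice, and their ranges overlapped, as did those of Rgs19 and Rgs13 (4 of 6). Rgs13 was above Rgs16 in 6 of 6 mice although the ranges overlapped. In Myh11-GFP cells the order was Rgs5, Rgs16, Rgs4, Rgs2 and Rgs3, with no overlap between neighbours. Of the 9345 genes with enough transcripts, 958 (10.3%) were at least 4-fold higher in MCs with ranges that did not overlap, and 9.92% were so in Myh11-GFP cells. Of the 8 members among them, Rgs1, Rgs2, Rgs10, Rgs13, Rgs18 and Rgs19 met this in MCs and Rgs4 and Rgs16 in Myh11-GFP cells. Genes entered with 10 transcripts in at least 3 mice or libraries. Rgs1, Rgs10, Rgs13, Rgs18 and Rgs19 reached this only in the mice, and Rgs4 only in the Myh11-GFP libraries. A low level in the other sort was thus built into their entry, and the number of members is not read as a result. The 2 sorts came from different mice, strain backgrounds, gates and libraries, which cannot be told apart from cell type here.

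Pooled over all MCs, the shares of cells with a UMI had the same order as the levels for the members down to Rgs16. In Myh11-GFP cells no order is read from the shares of Rgs4 and Rgs16, which changed places with depth. Rgs2 was found in 71.6% of MCs and 23.6% of Myh11-GFP cells, and Rgs1 in 58.3% and 0.606%. By mouse, the Rgs2 share ran from 55.9% (WT mouse 1) to 83.9% (Tln1∆MC mouse 3). The Rgs1 share ran from 36.4% to 73.9% in the same 2 mice. Tln1∆MC mouse 3 gave 934 of the 2477 MCs and had the most UMIs per cell, so the pooled shares lean towards it. Rgs18 was found in 48.5% of MCs and in 0 of 330 Myh11-GFP cells, which allows a share of cells with a UMI of up to 0.909% (3 cells). Rgs10 was found in 46.0% of MCs, Rgs19 in 19.2%, Rgs13 in 14.9%, Rgs16 in 7.99%, Rgs3 in 0.929% and Rgs4 in 0.404%. In Myh11-GFP cells Rgs4 was found in 52.1%, Rgs16 in 48.5%, Rgs3 in 5.15%, Rgs10 and Rgs19 each in 2.42% and Rgs13 in 0.303%. The median UMI count was 3295 per MC and 3904.5 per Myh11-GFP cell. With every cell thinned to 1000 UMIs, which left out 282 MCs and 23 Myh11-GFP cells, the share with Rgs2 was 49.2% in MCs and 8.79% in Myh11-GFP cells. The thinned share with Rgs1 was 36.3% in MCs and 0.326% in Myh11-GFP cells, and that with Rgs16 was 2.37% and 33.9%. The thinned share with Rgs4 was 0.0911% in MCs and 22.8% in Myh11-GFP cells, below that with Rgs16 in the latter.

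The first comparison asked whether the loss of Tln1 in MCs went along with a change in these genes. No gene passed the test, the members and Tln1 included. Transcripts were summed per mouse and tested by limma on log2(transcripts per 1,000,000 + 1) with Benjamini-Hochberg adjustment over 8601 genes, with 3 mice against 3. Across all genes, 0% were called higher and 0% lower in Tln1∆MC at an adjusted p of 0.05, although 503 had an unadjusted p under it. Tln1 itself was at 4.51, 5.92 and 6.71 in WT mice and at 5.57, 4.33 and 3.63 in Tln1∆MC mice, and the genotypes overlapped (log2 change -0.31, SE 0.25, adjusted p 0.875). The labels do not give the floxed exons, and a 3′ tag outside them does not check the deletion.

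Rgs1 was the one member whose genotypes did not overlap, with the Tln1∆MC mice at 5.95 to 6.22 and the WT mice at 4.90 to 5.48. The change of 0.27 on the log2 scale (SE 0.18) did not pass the test (limma, adjusted p 0.844). Of all genes tested, 5.34% were higher in every Tln1∆MC mouse than in every WT mouse and 6.31% were lower in every one, against 1 and 0 of the 7 members tested. Rgs10 had the smallest unadjusted p of the members, 0.0873 by limma, with 1.85 ± 0.192 in Tln1∆MC and 2.51 ± 0.642 in WT mice (SD, n = 3 each; log2 change -0.38, SE 0.20, adjusted p 0.842). Rgs2, Rgs13, Rgs16, Rgs18 and Rgs19 had log2 changes from -0.28 to 0.36 and limma adjusted p of 0.876 to 0.965. Rgs3 and Rgs4 were below the filter. The mice were also compared within the groups inferred from barcode carry-over, of which that of WT mouse 1 and Tln1∆MC mouse 1 was weakly linked. Rgs1 in Tln1∆MC mouse 1 was 1.23-fold its level in WT mouse 1, and in Tln1∆MC mouse 2 it was 1.12-fold the mean of WT mice 2 and 3. The corresponding ratios of Rgs10 were 0.529 and 0.826. Fibroblast markers differed between the genotypes without overlap, as given above, and their part in these values was not tested.

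The next comparison was made within each mouse, between MCs with high and with low levels of immediate early genes. These genes (Fos, Fosb, Jun, Junb, Egr1, Egr2, Egr3, Ier2, Ier3, Atf3, Dusp1, Btg2 and Zfp36) respond to stimulation within minutes. According to the study's methods, ear skin was minced and digested with enzymes before the sort. The part of this step in the immediate early levels was not tested. The levels were summed in each cell, and each mouse's cells were divided at its median, 136 to 467 cells on each side. Part of the members rose. Rgs2, Rgs1, Rgs16 and Rgs18 were higher in the immediate-early-high cells, whereas Rgs10, Rgs13 and Rgs19 did not pass the test. In the fit with mouse as a block, 2.05% of 8589 genes outside the score rose and 0.943% fell, against 4 and 0 of the 7 members tested. The members were chosen with earlier results of these data known, so these counts are descriptions and not a test.

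Rgs2 was at 4.15, 4.78 and 5.72 in the low cells of WT mice 1 to 3 and at 17.4, 12.9 and 16.2 in their high cells. In Tln1∆MC mice 1 to 3 it was at 5.91, 5.71 and 5.00 in the low cells and at 17.8, 20.2 and 15.0 in the high cells. The low and high cells did not overlap over the 6 mice, with means of 5.21 ± 0.687 and 16.6 ± 2.51 (SD, n = 6). The change was 1.69 on the log2 scale (SE 0.09, limma adjusted p 1.93e-08).

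Rgs1 was at 1.98, 3.70 and 4.20 in the low cells of WT mice and at 7.13, 7.05 and 6.66 in their high cells. In Tln1∆MC mice it was at 3.39, 3.12 and 3.55 in the low cells and at 8.15, 8.41 and 9.74 in the high cells. All high cells lay above all low cells again, at 7.86 ± 1.15 against 3.32 ± 0.749 (log2 change 1.28, SE 0.13, limma adjusted p 1.54e-05).

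Rgs16 was at 0.0803, 0.0597 and 0.120 in the low cells of WT mice and at 0.529, 0.252 and 0.383 in their high cells. These low-cell levels rest on very few transcripts, since all MCs together held 280 Rgs16 transcripts. In Tln1∆MC mice it was at 0.319, 0.128 and 0.138 in the low cells and at 0.368, 0.318 and 0.540 in the high cells. Each mouse was higher in its high cells, but the ranges overlapped because Tln1∆MC mouse 1 was already at 0.319 in the low cells. The log2 change was 1.59 (SE 0.28, limma adjusted p 0.00433). Rgs16 was the leading member of the Myh11-GFP sort, and smooth muscle markers were at 0.0209 to 0.230 in the high and 0.0289 to 0.180 in the low MCs. Fibroblast markers were higher in the high cells of WT mice 1 and 3 and Tln1∆MC mouse 3. They were lower in the high cells of WT mouse 2 and Tln1∆MC mice 1 and 2. The part of these markers in the Rgs16 values was not tested.

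Rgs18 changed least of the 4. It was at 2.81, 1.82 and 1.56 in the low and 3.60, 2.68 and 2.05 in the high cells of WT mice, and at 2.37, 1.68 and 2.57 in the low and 2.97, 2.65 and 3.22 in the high cells of Tln1∆MC mice. Each mouse was higher in its high cells and the ranges overlapped (log2 change 0.46, SE 0.10, limma adjusted p 0.0143). This call was lost under 5 of 18 alternatives, with limma adjusted p from 0.00197 to 0.446. It was lost without Tln1∆MC mouse 2 (0.0711), without the filter on low genes (0.0514), after thinning (0.446), with a score of Fos, Junb and Egr1 alone (0.0813) and without the mouse block (0.348). Rgs1 and Rgs2 were called under 18 of 18 alternatives. Rgs16 was called under the 17 that could test it, since it was too rare after thinning.

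**Figure D2:**
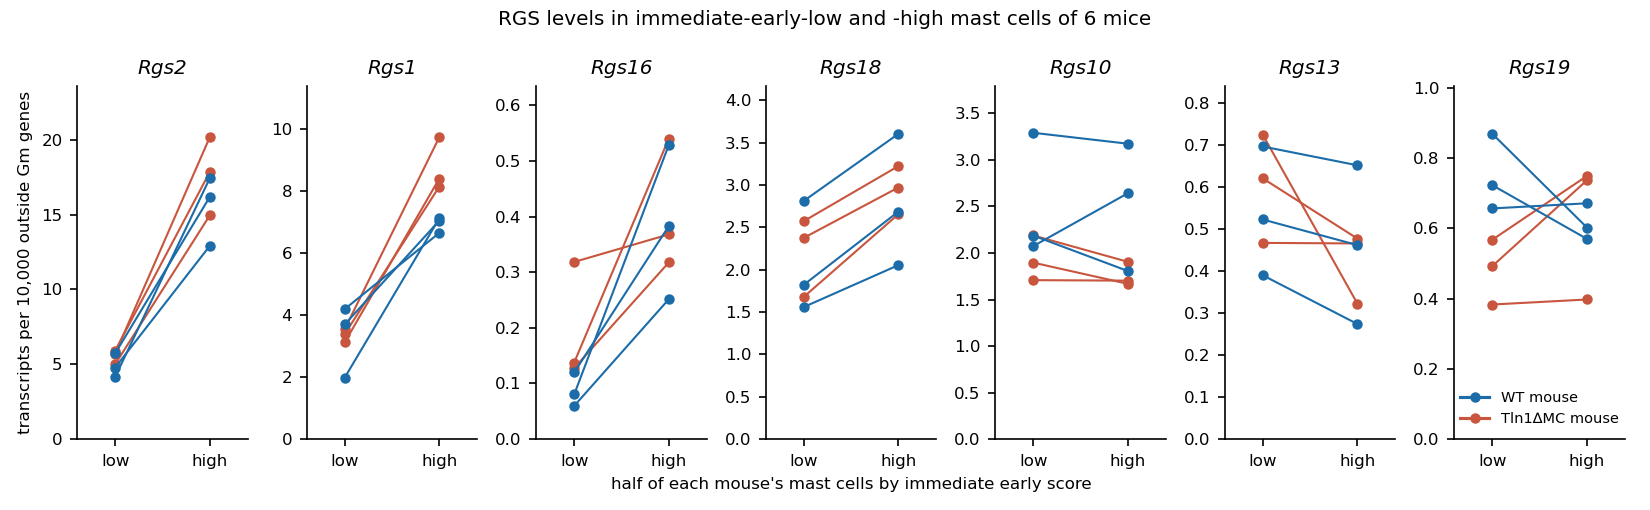
Level of the 7 tested members (transcripts per 10,000 outside Gm genes, a scale for each gene) in the immediate-early-low and -high MCs of each of 6 mice, colored by genotype. A line joins the low and high cells of 1 mouse. Every line rises for Rgs2, Rgs1, Rgs16 and Rgs18, from 5.21 to 16.6 by the means for Rgs2 and from 2.14 to 2.86 for Rgs18.

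Rgs13 was lower in the high cells of 6 of 6 mice, but its log2 change of -0.36 (SE 0.18) did not pass the test (limma adjusted p 0.370). Rgs10 (-0.04, limma adjusted p 0.893) and Rgs19 (0.05, limma adjusted p 0.919) moved least. The median log2 change was 0.46 over the 7 members tested and -0.01 over all genes. With the cells of each mouse divided into 4 equal parts by the score instead, the mean of Rgs2 went from 4.13 through 6.30 and 11.4 to 21.3, with a rise at each step in 6 of 6 mice. Rgs1 went from 2.60 through 4.05 and 4.65 to 10.8, rising at each step in 5 of 6 mice. Rgs16 went from 0.0796 to 0.539 from the lowest to the highest part and Rgs18 from 1.86 to 3.16. Both were higher in the highest than in the lowest part in 6 of 6 mice, but rose at each step in only 3 mice (Rgs16) and 2 mice (Rgs18). Rgs13 went from 0.591 to 0.400. The median number of transcripts per cell was higher in the high cells of 4 of 6 mice (1955 to 4545 against 1651 to 5081). Keratinocyte markers were at 0.0289 to 36.2 in the low and 0.0230 to 4.59 in the high cells, and fibroblast markers at 0.540 to 113 and 1.10 to 89.9, and their part in these values was not tested. The rises did not differ by genotype past the threshold. The interaction was called for 0 of 8601 genes by limma with Benjamini-Hochberg adjustment, 312 having an unadjusted p under 0.05. For Rgs16 it was -0.92 on the log2 scale (SE 0.59, adjusted p 0.998).

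**Figure D3:**
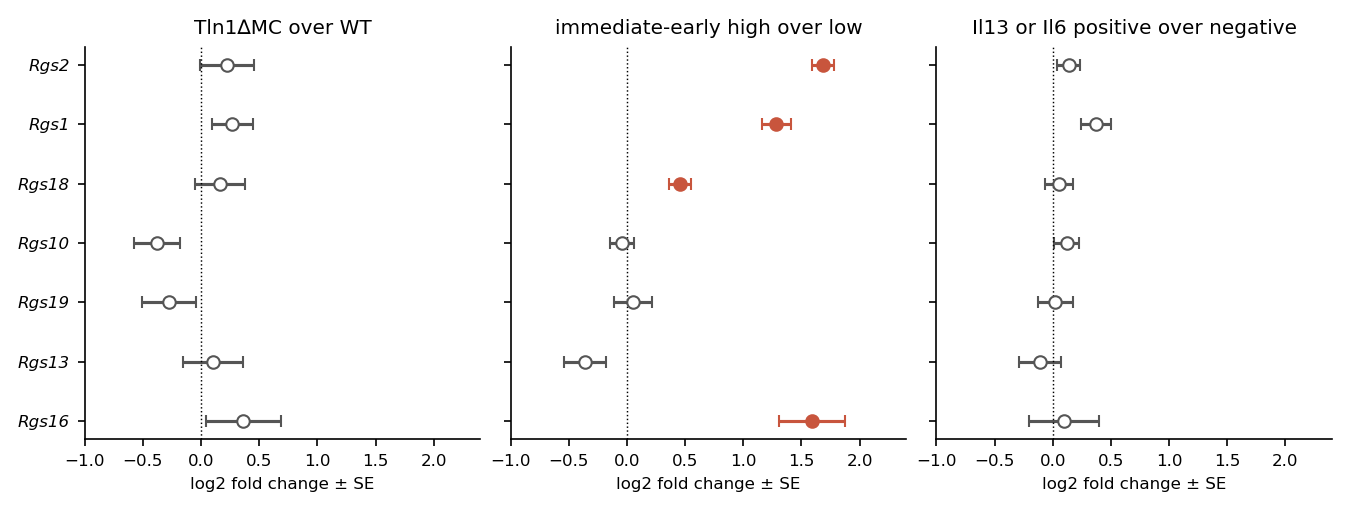
Fitted log2 change with its standard error for each tested member in 3 comparisons: Tln1∆MC against WT, immediate-early-high against -low MCs, and Il13- or Il6-positive against negative MCs. Filled points passed an adjusted p of 0.05 (limma, Benjamini-Hochberg over all genes). These are Rgs1, Rgs2, Rgs16 and Rgs18 in the immediate early comparison.

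MCs with a UMI of Il13 or Il6, cytokines that activated MCs make, were compared with the other MCs of the same mouse. No member passed the test. Of 8599 genes outside these 2, 0.64% rose and 1.13% fell in the positive cells. Rgs1 came nearest among the members. It was at 5.74, 4.84 and 5.58 in the positive and 4.24, 5.46 and 5.35 in the negative cells of WT mice 1 to 3. In Tln1∆MC mice it was at 7.61, 7.59 and 6.41 in the positive and 4.61, 3.66 and 5.82 in the negative cells. It was higher in the positive cells of 5 of 6 mice, all but WT mouse 2, with a log2 change of 0.38 (SE 0.13, limma p 0.0109, adjusted p 0.204). The other 6 members tested had log2 changes from -0.11 to 0.14. Positive cells were deeper in 6 of 6 mice, with medians of 2462 to 5229 transcripts against 1363 to 4209.

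The genes that RGS proteins act with were read from lists of G alpha subunits, G beta and gamma subunits, other Rgs genes, receptor kinases and arrestins, effectors, and receptors. Of the G alpha subunits, Gnai2 (11.3), Gna13 (5.25) and Gnai1 (3.26) had the highest mean levels in MCs, over 6 mice. The leading G beta and gamma genes were Gnb1 (2.93), Gng2 (2.46) and Gnb4 (2.10). Among the other Rgs genes Rgs12 led at 1.28, above Rgs8 (0.307), Rgs9 (0.259) and Rgs14 (0.242). The receptor kinases Adrbk1 (1.67), Adrbk2 (1.31) and Grk4 (1.30) and the effectors Adcy7 (1.59), Plcb2 (0.433) and Adcy6 (0.143) headed their lists. The leading receptors were Mrgprb1 (19.6), Mrgprb2 (5.62), which is the receptor for basic secretagogues, and the adenosine receptor Adora3 (6.11), and none of these 3 had a transcript in the Myh11-GFP cells.

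In the immediate early comparison, in which 2.05% of all genes rose and 0.943% fell, 0 genes were called among 11 G alpha, 7 G beta and gamma, 5 other Rgs, 7 kinase and arrestin, 3 effector and 17 receptor genes tested (limma, Benjamini-Hochberg over all genes). Whether these counts differed from that of the members was not tested. Their median log2 changes were -0.04 to 0.07. Between the genotypes 0 were called as well, with medians from -0.15 for receptors to 0.21 for the other Rgs genes. In the Il13 or Il6 comparison Grk4 was the single call. It fell from 1.73 in the negative to 0.959 in the positive cells (log2 change -0.75, SE 0.13, limma adjusted p 0.00897).

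Between the sorts, 10.3% of all genes were at least 4-fold higher in MCs without overlap and 9.92% in Myh11-GFP cells, and the counts on the lists are given beside these shares. Genes on the lists could also pass the filter through 1 sort alone, so that their counts are descriptions and not a test. Of 7 other Rgs genes with enough transcripts, Rgs8, Rgs9, Rgs12 and Rgs14 were higher in MCs by this rule, and Rgs5, Rgs6 and Rgs7bp in Myh11-GFP cells. Of 11 G alpha genes, Gnai1, Gna13, Gna14 and Gnaz were higher in MCs in this way and Gna11, a Gq family subunit, in Myh11-GFP cells (0.133 in MCs and 1.08 in Myh11-GFP cells). Of 7 G beta and gamma genes, Gng2 was higher in MCs (2.46 and 0.0505) and Gng11 in Myh11-GFP cells (0.141 and 4.57). Of 6 effectors, Adcy7 and Plcb2 were higher in MCs and Adcy5, Adcy6, Adcy9 and Plcb4 in Myh11-GFP cells. Of 7 kinases and arrestins, Adrbk1, Adrbk2 and Arrb1 were higher in MCs and 0 in Myh11-GFP cells. Of 21 receptors, 8 were higher in MCs and 5 in Myh11-GFP cells.

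Across single MCs, the genes most like each member were ranked by Pearson r on log2(level + 1), averaged over 6 mice. The ranking was made among 4707 genes found in at least 10% of the cells. The r values are descriptions, since the cells of a mouse share libraries and depth. Rgs2 was most like Junb (r 0.377, range 0.247 to 0.485 over the mice), Dusp1 (0.363) and Fos (0.349). Rgs1 was most like Dusp1 (0.353), the chemokine gene Ccl2 (0.320) and Zfp36 (0.310). Rgs1 and Rgs2 had an r of 0.283 with each other (0.216 to 0.358), the highest among the member pairs. The granule protease gene Cpa3 ranked first for both Rgs18 and Rgs10. Rgs18 was most like Cpa3, a carboxypeptidase gene (0.322), then Serinc3 (0.277) and Itm2b (0.269). Rgs10 was most like Cpa3 (0.245), the chymase gene Cma1 (0.240) and Serpinb1a (0.231). Rgs13 was most like Cma1 (0.154) and Rgs19 most like Atp5b (0.160).

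Within the Myh11-GFP cells, cells were divided at each library's median of Acta2 plus Myh11, contractile genes of smooth muscle. Rgs16 was lower in the Acta2-Myh11-high cells. It was at 21.7, 22.7, 11.9 and 16.2 in the low cells of libraries 13 to 16 and at 5.99, 10.5, 3.66 and 3.07 in the high cells. The groups did not overlap, and the means of 18.1 ± 5.04 and 5.80 ± 3.37 (SD, n = 4 libraries) were 3.13-fold apart. Of 4711 genes, 5.09% were at least 2-fold higher in the high cells by the means, with the same direction in all 4 libraries, and 4.5% were lower by this rule. Rgs16 was the one member among them. Rgs2 was higher in the high cells of 4 of 4 libraries, by 1.48-fold. Rgs4 was higher in 2 and lower in 2, with means of 3.07 in the low and 3.16 in the high cells. Rgs5 was 1.20-fold higher in the high cells, in 3 of 4 libraries. Rgs3 was below the filter, with 19 transcripts in the low and 4 in the high cells. The low cells held more of the other cell types, with fibroblast markers at 176 to 378 against 20.1 to 37.8 and pericyte markers at 11.5 to 14.8 against 6.07 to 7.18, and their part in the Rgs16 difference was not tested.

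A division of the Myh11-GFP cells by the immediate early score was added after their values had been seen. Rgs16 was at 5.72, 6.47, 0.946 and 2.96 in the low cells of libraries 13 to 16 and at 19.8, 25.4, 14.1 and 15.9 in the high cells. The groups did not overlap, and the high cells were 4.67-fold higher (18.8 ± 4.99 against 4.02 ± 2.55, SD, n = 4 libraries). Rgs2 was at 1.34, 0.840, 0.556 and 0.329 in the low cells and at 2.61, 2.35, 0.914 and 0.998 in the high cells. Each library was higher in its high cells, by 2.24-fold on the means, while the groups overlapped. By the same rule, 5.62% of 4701 genes were higher in the high cells of this division and 1.85% were lower. Rgs4 was higher in the high cells of 3 of 4 libraries, by 1.16-fold, and Rgs5 in 2 of 4. The high cells had median depths of 2749 to 5283 transcripts against 2004 to 3647. Smooth muscle markers were at 58.5 to 78.6 in the high and 79.0 to 103 in the low cells, without overlap. Fibroblast markers overlapped, at 34.8 to 366 and 41.0 to 235. The part of depth, markers and tissue digestion in the Rgs16 difference was not tested. With both divisions crossed, Rgs16 averaged 26.3 ± 5.68 in the Acta2-Myh11-low cells of high score and 5.45 ± 3.95 in those of low score. In the Acta2-Myh11-high cells it averaged 8.73 ± 6.06 at high score and 2.51 ± 1.79 at low score (SD, n = 4 libraries). Each crossed group held 82 to 84 cells over the 4 libraries together, which was 18 to 25 cells per library.

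**Figure D4:**
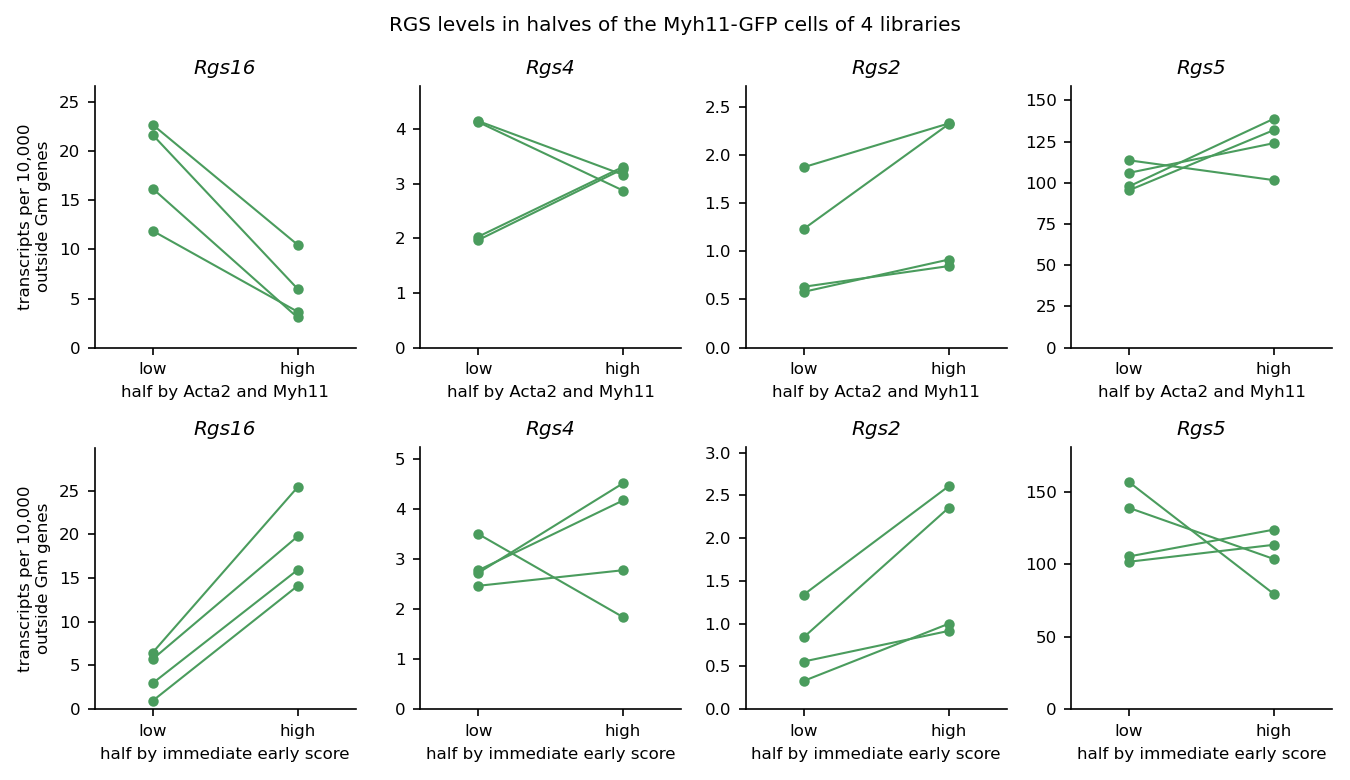
Level of Rgs2, Rgs4, Rgs16 and Rgs5 (transcripts per 10,000 outside Gm genes) in the low and high cells of the 4 Myh11-GFP libraries, divided by Acta2 plus Myh11 and by the immediate early score. A line joins the low and high cells of 1 library. Rgs16 falls in every library with Acta2 plus Myh11, from 18.1 to 5.80 by the means, and rises in every library with the immediate early score, from 4.02 to 18.8.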

How the data were processed

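Ear skin cells from 6 mice (30 MC libraries) and 4 Myh11-GFP libraries were analysed from the authors' deposited tables. According to the methods and the submitters' processing notes, reads were demultiplexed with bcl2fastq 2.17.1.14 and aligned with BWA 0.6.2-r126 in the sense direction to mouse ENCODE VM9 gene models (mm10). Reads with several loci were discarded, loci overlapping by over 75% were merged, and 6-base UMIs were converted to transcript counts by binomial statistics. The labels give 92 cells per library. Each mouse was identified by the number after the genotype in the titles. The deposited transcript counts are not whole numbers, and all of them went back to whole UMIs within 1e-06. Since these values are corrected estimates, limma 3.58.1 (R 4.3.3) on log values took the place of the count model first planned.

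Cells with over 1000 transcripts were kept. The study's limit of 2% Kcnq1ot1 removed 0 cells, and doublets were not called. Genes with Gm names were left out of totals and tests. Counts were summed per mouse (and per group of cells), scaled by TMM factors, and tested as log2(transcripts per 1,000,000 + 1) with a mean-variance trend, for genes that reached 10 transcripts in 3 mice or more. The fold change is on this scale and understates the change of low genes. Benjamini-Hochberg adjustment ran over all genes tested, with a threshold of 0.05. Comparisons within mice had mouse as a block. The code was checked on simulated data. Counting intervals are exact (Clopper-Pearson) at 95%, and the limit for a count of 0 is 3 counts. Every member was described in every comparison. Of the other genes, those named were Rgs5, the leading genes of each pathway list, the largest changes past a threshold, and the 3 genes most like each member found in at least 10% of MCs. The members and lists were chosen with earlier results of these data known. Analyses used numpy 2.4.6, scipy 1.17.1 and pandas 2.3.3, and figures matplotlib 3.10.9. The alternatives were other scaling factors, filters, pseudocounts, cell limits, groups of cells, thinning, blocks and leaving out each mouse. p-values measure the spread between these mice.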

Additional observations from a re-analysis of the deposited data

Results flagged for a closer look

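In Myh11-GFP library 13 the Rgs1 level of 0.0418 stood apart from the other 3 libraries, which had no transcript. It rested on 2 transcripts. In Myh11-GFP library 15 the Rgs13 level of 0.0265 stood apart in the same way, on 1 transcript. Of 29 groups looked at, these 2 had a sample this far from the rest. Where the other libraries hold no transcript, any count stands apart, so that neither flag says more than the counts. The barcodes not in use in the MC tables held 220 Rgs2 transcripts, 2.13% of the 10315 Rgs2 transcripts on the barcodes in use.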

How the results depend on the processing

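The number of members called or past a limit stayed within 1.5 times the reported number under the alternatives, with 2 exceptions. Where the reported number was 0, it stayed at 0. The log2 change of Tln1 between the genotypes kept its sign under 20 of 20 alternatives. In the immediate early comparison 2 members, Rgs1 and Rgs2, were called after thinning to 1000 UMIs, in place of 4, with Rgs16 no longer testable there. In the Acta2-Myh11 comparison 2 members met the limit when the lowest and highest of 3 equal parts were compared, Rgs2 having joined Rgs16. No member was called between the genotypes under any of 20 alternatives or in the Il13 or Il6 comparison under any of 17. Over all genes, 257 calls in the immediate early comparison (176 higher, 81 lower) became 780 (229 higher, 551 lower) with Gm genes kept, 128 without the filter and 126 after thinning. They became 154 without Tln1∆MC mouse 2, 169 without Tln1∆MC mouse 1 and 79 without the mouse block. The 152 calls of the Il13 or Il6 comparison became 307 with Gm genes kept, 34 without the filter, 17 after thinning, 1 without the mouse block, 48 without Tln1∆MC mouse 2, 70 without WT mouse 1, 81 without WT mouse 3 and 101 without Tln1∆MC mouse 1. The genotype comparison gave 12 calls, none a member, without Tln1∆MC mouse 1, 1 without WT mouse 1 and 4 with a block of barcode carry-over.

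The signs that turned all belonged to members that were not called in the same comparison. Between the genotypes, Rgs13 ranged from -0.14 on the log2 scale (without WT mouse 3) to 0.29 (without WT mouse 1) when single mice were left out. In the immediate early comparison Rgs10 was at 0.13 with Gm genes kept, from -0.11 (without WT mouse 2) to 0.0018 (without WT mouse 3) with single mice left out, and 0.023 with the score of Fos, Junb and Egr1. Rgs19 was at -0.053 without Tln1∆MC mouse 1 and -0.02 without Tln1∆MC mouse 3, against 0.16 without WT mouse 3. In the Il13 or Il6 comparison Rgs19 was at -0.0062 without the WT mouse 2 library of most macrophage markers, -0.055 without WT mouse 2, -0.02 without WT mouse 3, -0.0056 without Tln1∆MC mouse 1 (against 0.10 without Tln1∆MC mouse 2), -0.78 after thinning and -0.13 with at least 2 UMIs required. Rgs18 was at -0.036 without WT mouse 1 and -0.035 without Tln1∆MC mouse 2, against 0.14 without WT mouse 2. Rgs16 was at -0.13 both without WT mouse 3 and without Tln1∆MC mouse 2, against 0.34 without Tln1∆MC mouse 1. The cause was not tested.

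Mouse numbers did not pair the genotypes. Same-numbered mice had correlations of their deviations of 0.163, -0.212 and -0.266. With a replicate block, 0 genes were called, and Rgs1 stayed at 0.27 (limma, adjusted p 0.959). The alternatives that needed DESeq2 were not run. Members with few transcripts (Rgs3, and Rgs4 in MCs) could not be compared at this depth.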
